A study of Rattus norvegicus with 6 samples.

Results

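The genes that make nitric oxide, supply its cofactor, remove its natural inhibitor and receive its signal were followed in brain capillaries of stroke-prone spontaneously hypertensive rats (SHRSP), which inherit high blood pressure and a tendency to stroke. They are 8 of the 4736 genes named on the Affymetrix rat array used. Every probe set whose only gene symbol was Nos1, Nos2, Nos3, Gch1 or Ddah1, or began with Gucy1, was taken, whatever its signal. This gave 22 of 8799 probe sets: 6 for Nos3, 4 each for Nos2 and Gch1, 3 for Nos1, 2 for Ddah1 and 1 each for Gucy1a1, Gucy1b1 and Gucy1b2. Another 3 probe sets that carried the symbol of a Nos2 pseudogene beside Nos2 were left out.

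RNA of 6-week-old SHRSP was hybridised to 6 arrays, 2 per group. The groups were a control group, a group given the angiotensin-converting enzyme inhibitor lisinopril at 6 mg/kg per day (ACEI), and a group given olmesartan, a blocker of the angiotensin type 1 receptor, by mouth at 4 mg/kg per day (ARB). The labels name 1% NaCl as well, but the sources used here do not give whether it went to all groups or to the controls, how long treatment lasted, or how many animals stand behind an array. The question was what angiotensin II does to gene expression in these capillaries. Since nothing says that the 2 arrays of a group came from separate animals, the p-values below measure the spread between arrays, which may be technical.

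Nitric oxide is a gas made from arginine by 3 synthases: Nos3 of endothelium, Nos1 of neurons, and Nos2, which inflammatory stimuli induce in macrophages and other cells. All of them need tetrahydrobiopterin, whose synthesis begins with the enzyme encoded by Gch1. Ddah1 breaks down asymmetric dimethylarginine, a natural inhibitor of the synthases. Nitric oxide binds soluble guanylate cyclase, a dimer of an alpha and a beta chain such as Gucy1a1 and Gucy1b1, and the cyclic GMP that results relaxes smooth muscle.

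The 6 arrays differed in several measures of the hybridisation. Their trimmed means lay between 997.7 and 1002, so the deposited intensities were scaled alike. On control 2 the Gapdh probe set at the 3' end was 7.31 times as bright as that at the 5' end, against 0.93 to 1.59 times on the other 5 arrays; a high value accompanies degraded or incompletely copied RNA. On the ARB arrays the 15 control probe sets for bacterial transcripts had a median intensity of 91.4 and 80.9, against 18.4 to 28.8 on the other 4 arrays. The highest of them read 545.3 and 522.9 there, against 53.0 to 168.3 on the other 4. On the ARB arrays 13 and 12 of the 22 member probe sets were at or below that highest value, against 2 to 5 elsewhere. The file headers place control 1 and ACEI 1 on a first run day and the other 4 arrays on a later one. Markers of endothelium, smooth muscle, neurons, glia and blood were measured, and summed levels of the lists are given beside the members they touch. Not every marker was above background. The lowest neuronal marker read 10.2 to 18.9 on the control and ACEI arrays, on each below the bacterial control median. In bulk RNA, fewer cells of a type and less RNA per cell cannot be told apart.

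The largest difference of a member with RAS blockade, the mean of both drugs, was the lower level of Gch1 by its M58364_at probe set, while the 5 Nos3 probe sets past the filter differed by 4.23-fold or more between the 2 control arrays. No member passed the test: limma, which fitted log2 of the intensity plus 90 for the 5244 probe sets left after the dimmest 40% were dropped, called 0 of 14 member probe sets at an adjusted p of 0.05 in any comparison, and 0% of all probe sets. The RAS blockade difference is the mean of the ACEI and ARB groups minus control. At an unadjusted p under 0.05, 2 of 14 member probe sets were lower with RAS blockade and 0 higher, against 2.02% lower, 3.05% higher and 5.07% in either direction of all probe sets tested. With ACEI 2 of 14 were lower (1.39% of all were lower, 1.2% higher and 2.59% either), with ARB 2 of 14 were lower (4.69% of all lower, 12.6% higher, 17.3% either), and for ARB versus ACEI 2 of 14 were higher (15.6% of all higher, 6.71% lower, 22.3% either). The count for ARB against ACEI lies near its background. The median difference of the 14 was -0.20 for RAS blockade on the log2 scale, and that of all 5244 was 0.13.

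Nos3, the endothelial synthase, had 6 probe sets, of which 5 passed the filter. AJ011116_at read 2068 on control 1 and 262 on control 2, against 1379 and 1965 with ACEI, and 629 and 599.7 with ARB. Its control values lay on either side of all treated values. AJ011115_g_at read 1652 and 381 on the controls, 1310.2 and 966 with ACEI, and 389.5 and 1200.0 with ARB. AF110508_at read 1383 and 327 on the controls, 1659 and 427 with ACEI, and 986 and 674 with ARB. U02534_at read 1276 and 301 on the controls, 973 and 657 with ACEI, and 750.2 and 144 with ARB. In each of these the group ranges overlapped for both drugs against control.

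Of the remaining Nos3 probe sets, AJ011115_at read 979 and 74.1 on the controls, 609 and 449 with ACEI, and 59.3 and 136 with ARB, and AF085195_at, which lay below the filter, read 298 and 10.2, 87.9 and 115, and 52.0 and 231. All 6 were lower on control 2 than on control 1, as were 48.3% of all probe sets. The 5 past the filter were lower by 4.23-fold to 13.2-fold, while AF085195_at, at 10.2, was below the bacterial control median of 25.2 on control 2 and has no fold. Likewise all 6, AF085195_at at background included, were lower on control 2 than on both ACEI arrays. The share of all probe sets with that order was not computed. Over the 6 arrays the 15 pairs of Nos3 probe sets had Pearson correlations of log2 values between 0.13 and 0.90 with a median of 0.63, a description over points that share their arrays. The probe sets therefore had the low control 2 in common but ordered the other arrays differently: ARB 2 was above ARB 1 for AJ011115_g_at and below it for U02534_at.

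**Figure D1:**
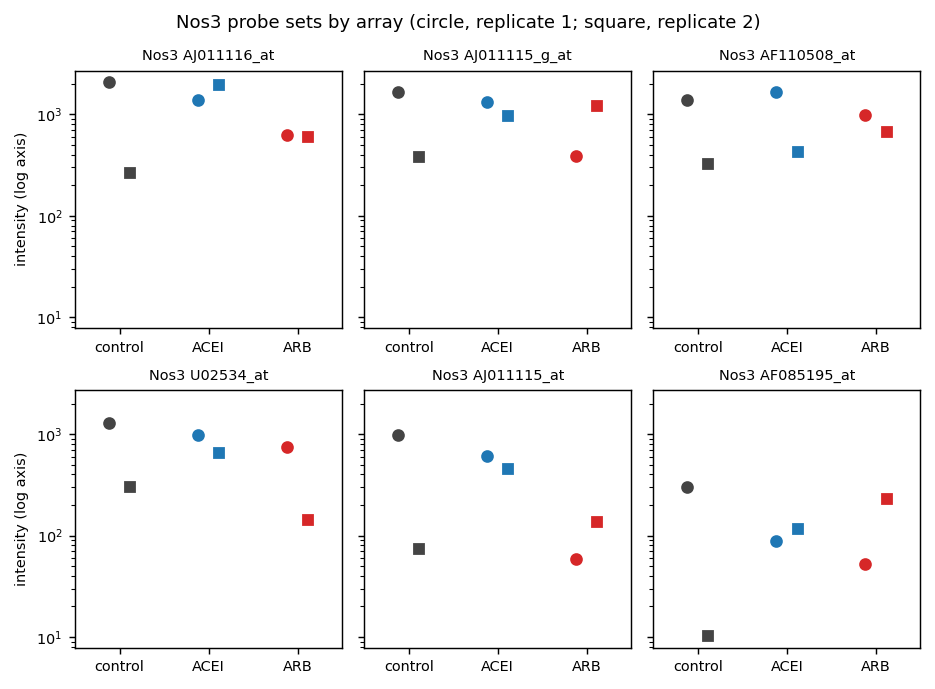
Intensity on a log axis of the 6 Nos3 probe sets on each array, by group; circles are replicate 1 and squares replicate 2. In every panel control 2 lies below control 1 and below both ACEI arrays.

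Beside Nos3 the endothelial markers differed between the control arrays too. Of 13 measured markers 9 were lower on control 2 than on control 1 and 8 by more than 2-fold, where 22.5% of all probe sets were lower by more than 2-fold. Pecam1, a junction molecule of endothelium, read 5538 and 194 on the controls, and Edn1, the gene of the vasoconstrictor endothelin, read 3014 and 234. The glucose transporter Slc2a1 went the other way, at 33691 and 66763, as did the anion transporter Slco1a4, at 17074 and 79016. These transporters made up most of the summed level of the list on every array, so the sum says little of the other markers. It was 79631 and 159631 on the controls, 83675 and 85779 with ACEI and 70326 and 80881 with ARB, and no marker was at 0. The part of the endothelial share or of RNA quality in the Nos3 values was not tested.

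**Figure D2:**
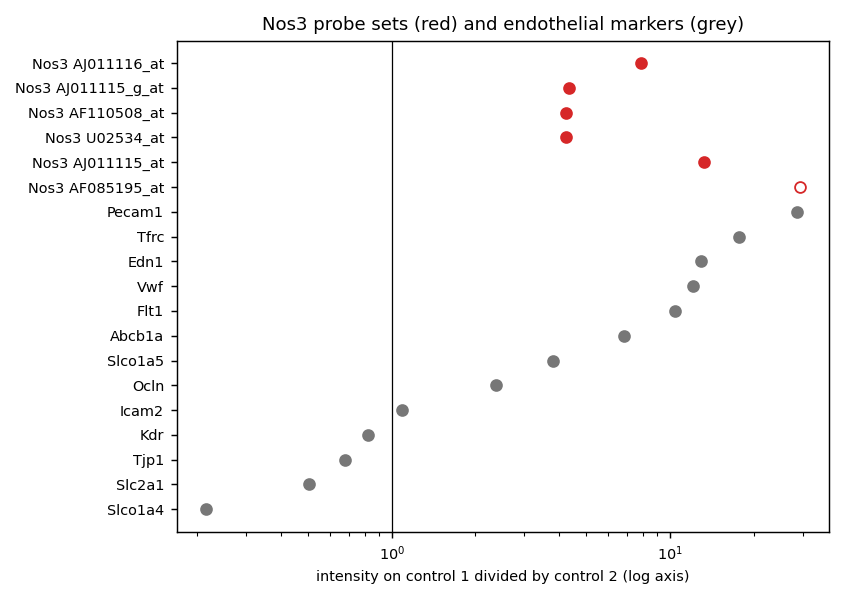
Intensity on control 1 divided by that on control 2, on a log axis, for the 6 Nos3 probe sets (red) and the 13 endothelial markers (grey); the line marks equal values. The filled Nos3 points lie between 4.23 and 13.2, and 9 of 13 markers lie above 1; the open point is AF085195_at, whose control 2 value was below the bacterial control median, so its place has no exact meaning.

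As fitted, Nos3 with ACEI was at 0.99 ± 0.78 (log2 difference ± SE of the model, 2 arrays per group) by AJ011116_at, 0.55 ± 0.80 by AJ011115_at, 0.42 ± 0.73 by AJ011115_g_at, 0.29 ± 0.77 by U02534_at and 0.28 ± 0.76 by AF110508_at, all with an adjusted p of 0.992 in limma. With ARB the same probe sets were at -0.31 ± 0.78, -1.19 ± 0.80, -0.20 ± 0.73, -0.72 ± 0.77 and 0.21 ± 0.76, with adjusted p from 0.458 to 0.915 in limma. Both comparisons share the 2 control arrays. Averaged over its 6 probe sets Nos3 was at 0.03 ± 0.56 with RAS blockade. The direction rested on them: without control 2 the ACEI difference of AJ011116_at was -0.31, and without control 1 it was 2.30, where it alone of the members was called (adjusted p = 0.0439 in limma, with control 2 as the lone control). Without control 2 all 5 probe sets were below 0 with ACEI and with ARB, from -0.31 to -0.80 and from -0.70 to -2.54. Within run days, ACEI minus control was below 0 on the first day and above 0 on the later day for 5 of 6 Nos3 probe sets, at -0.56 and 2.54 for AJ011116_at, and ARB minus control on the later day was 0.16 to 1.12. These within-day values rest on 1 control array each and have no error.

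The ARB against ACEI difference does not use the control arrays, although the pooled spread behind its error does. There AJ011116_at was at -1.30 ± 0.78 (adjusted p = 0.351 in limma) and AJ011115_at at -1.74 ± 0.80 (adjusted p = 0.242). The latter read 59.3 on ARB 1, below the bacterial control median of 91.4 there, so its low level with ARB is a bound and not a measured value on that array. U02534_at was at -1.01 ± 0.77, AJ011115_g_at at -0.63 ± 0.73 and AF110508_at at -0.07 ± 0.76 (adjusted p = 0.472, 0.641 and 0.968 in limma). AF085195_at, below the bacterial control median on ARB 1 too, was at 0.16 ± 0.71 in a fit without the filter. Averaged over its 6 probe sets Nos3 was at -0.76 ± 0.64. AJ011116_at and AJ011115_at, 2 of the 6, were lower on both ARB arrays than on both ACEI arrays, as were 17.3% of all 8740 probe sets. Of the 13 endothelial markers 8 were as well.

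The genes whose profile over the 6 arrays was most like that of AJ011116_at, among 4314 probe sets with 1 symbol, were Fos (an immediate early transcription factor, Pearson r = 0.997), the reductase Cyb5r3 (0.996), the 2 chains of a large neutral amino acid transporter, Slc7a5 (0.995) and Slc3a2 (0.994), and the tubulin Tubb5 (0.994). Fos read 11256 and 905 on the controls, 6769 and 8972 with ACEI and 2588 and 2092 with ARB. All 5 shared the low control 2 and ARB arrays below the ACEI arrays, and with 6 points and 4314 candidates these values of r are a description only.

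The 250 bases before the RefSeq start of Nos3 (GRCr8, chr4:11706582-11706831, minus strand) are shown as the upstream sequence of the member with the most probe sets. The capitals mark a GC box (GGGCGG or its reverse complement), which 30.5% of 33469 RefSeq stretches of that length held.
Nos3: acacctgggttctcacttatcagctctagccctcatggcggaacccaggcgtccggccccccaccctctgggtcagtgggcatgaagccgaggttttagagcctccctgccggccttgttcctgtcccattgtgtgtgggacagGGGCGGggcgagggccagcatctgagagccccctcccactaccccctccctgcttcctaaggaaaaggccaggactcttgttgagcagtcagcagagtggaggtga
The TATA box (TATAAA), which 12.9% of all stretches held, was on neither strand of this window. The same was true of the CCAAT box, the AP-1 motif TGANTCA and an NF-kappa-B motif, which 34.0%, 6.34% and 1.30% of all stretches held.

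Nos2, the inducible synthase, had 4 probe sets that did not order the groups alike. U03699complete_seq_at read 788 and 488 on the controls, 357 and 125 with ACEI, and 106 and 274 with ARB, so that all 4 treated arrays lay below both controls. It was at -1.31 ± 0.49 with RAS blockade (2.47-fold lower, adjusted p = 0.863 in limma), -1.20 ± 0.57 with ACEI and -1.42 ± 0.57 with ARB (adjusted p = 0.992 and 0.269). On ARB 1 its 106 was little above the bacterial control median of 91.4, so that level is near background. On ARB 2 its 274 was above the median of 80.9 but below the highest bacterial control, at 522.9. U16359cds_at read 546 and 571 on the controls, 171 and 68.0 with ACEI, and 330.0 and 1775 with ARB. It was therefore lower on both ACEI arrays than on any other array, and the ARB arrays lay on either side of the controls. On ARB 1 its 330.0 was below the highest bacterial control, at 545.3.

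U16359cds_at was at -1.68 ± 0.70 with ACEI (3.20-fold lower, adjusted p = 0.992 in limma) and at 0.45 ± 0.70 with ARB (adjusted p = 0.762). The test of ARB against ACEI gave 2.12 ± 0.70 (4.36-fold higher, adjusted p = 0.149), and 1.05 without ARB 2. S71597_s_at read 809.5 and 625 on the controls, 836 and 217 with ACEI, and 836 and 876 with ARB, a RAS blockade difference of -0.18 ± 0.51 (adjusted p = 0.957 in limma). ACEI 2 was the lowest array for S71597_s_at and U16359cds_at. AF006619_s_at, below the filter, read 96.2 and 80.2, 86.4 and 7.4, and 189 and 225. Its lowest value, 7.4 on ACEI 2, was below the bacterial control median of 18.4 and thus at background. Averaged over its 4 probe sets Nos2 was at -0.49 ± 0.43 with RAS blockade.

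Gch1, the first enzyme of tetrahydrobiopterin synthesis, had 4 probe sets. M58364_at read 1723 and 3529 on the controls, 681 and 1229.9 with ACEI, and 808 and 678 with ARB. E03424cds_s_at, below the filter, read 505 and 249 on the controls, 182 and 166 with ACEI, and 72.0 and 100.3 with ARB. In both, all 4 treated arrays lay below both controls. Over all member probe sets this held for 3 of 22 (these and U03699complete_seq_at of Nos2), against 2.64% of all 8740 probe sets, and for 2 of the 14 past the filter, against 3.72% of 5244; 0 of 22 lay above both controls on all 4, against 6.42%. For single drugs 5 of 22 were lower on both ACEI arrays than on both controls (12.9% of all), 3 were lower with ARB (11.1%) and 8 higher with ARB (43.9%), and 9 were higher with ARB than with ACEI (46.9%).

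M58364_at was at -1.48 ± 0.46 with RAS blockade (2.80-fold lower, 2 control and 4 treated arrays, adjusted p = 0.863 in limma), -1.34 ± 0.53 with ACEI (adjusted p = 0.992) and -1.62 ± 0.53 with ARB (adjusted p = 0.231). E03424cds_s_at was at -1.06 ± 0.36 with RAS blockade in a limma fit without the filter (adjusted p = 0.735). On ARB 1 its 72.0 was below the bacterial control median of 91.4, and on ARB 2 its 100.3 was little above that of 80.9, so its ARB levels are at background. For M58364_at the difference held its direction without any single array (-0.99 without control 2 to -1.98 without control 1). Its ACEI arrays differed from the control array of the same run day by -1.23 and -1.46, and its ARB arrays by -2.12.

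The other Gch1 probe set past the filter did not show this. rc_AI043643_at read 361 and 271 on the controls, 346 and 135 with ACEI, and 595 and 803 with ARB. Both ARB arrays were above all others, as they were for 36.5% of all 8740 probe sets. The bacterial control median was higher on the ARB arrays too, at 91.4 and 80.9 against 18.4 to 28.8. As fitted, rc_AI043643_at was at -0.37 ± 0.51 with ACEI, 0.95 ± 0.51 with ARB and 1.32 ± 0.51 for ARB against ACEI (adjusted p = 0.992, 0.357 and 0.182 in limma). rc_AA943102_s_at, below the filter, read 11.1 and 65.6, 21.6 and 7.3, and 171 and 77.3, and its groups overlapped for ACEI against control. On control 1, ACEI 1, ACEI 2 and ARB 2 it was below the bacterial control medians of 24.2, 28.8, 18.4 and 80.9. It was thus at background there and cannot show whether Gch1 was lower. Averaged over its 4 probe sets, the one at background included, Gch1 was at -0.50 ± 0.33 with RAS blockade.

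Markers of macrophages, which can express Nos2 and Gch1, and of blood cells lay lower too. All 8 microglia and macrophage markers past the filter were lower with RAS blockade, with a median of -0.84, while 59.6% of all 5244 probe sets were higher. At an unadjusted p under 0.05 in limma 3 of the 8 markers were lower, against 2.02% of all probe sets, and 0 passed the adjustment. Their summed level over 10 measured markers was 36693 and 34033 on the controls, 17980 and 39243 with ACEI, and 11875 and 13367 with ARB, with none at 0. Of these, Lgals3 (galectin-3) read 1070.0 and 1153 on the controls and 249, 264, 84.9 and 128 on the treated arrays. Its 84.9 on ARB 1 was below the bacterial control median of 91.4, so that level is a bound. Its 128 on ARB 2 was below the highest bacterial control, at 522.9. The 5 blood cell markers were all lower as well, with a median of -2.11 and 3 at an unadjusted p under 0.05, and summed to 56070 and 170558 on the controls, 49662 and 72180 with ACEI and 61577 and 51917 with ARB. Their part in the Gch1 and Nos2 values was not tested.

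**Figure D3:**
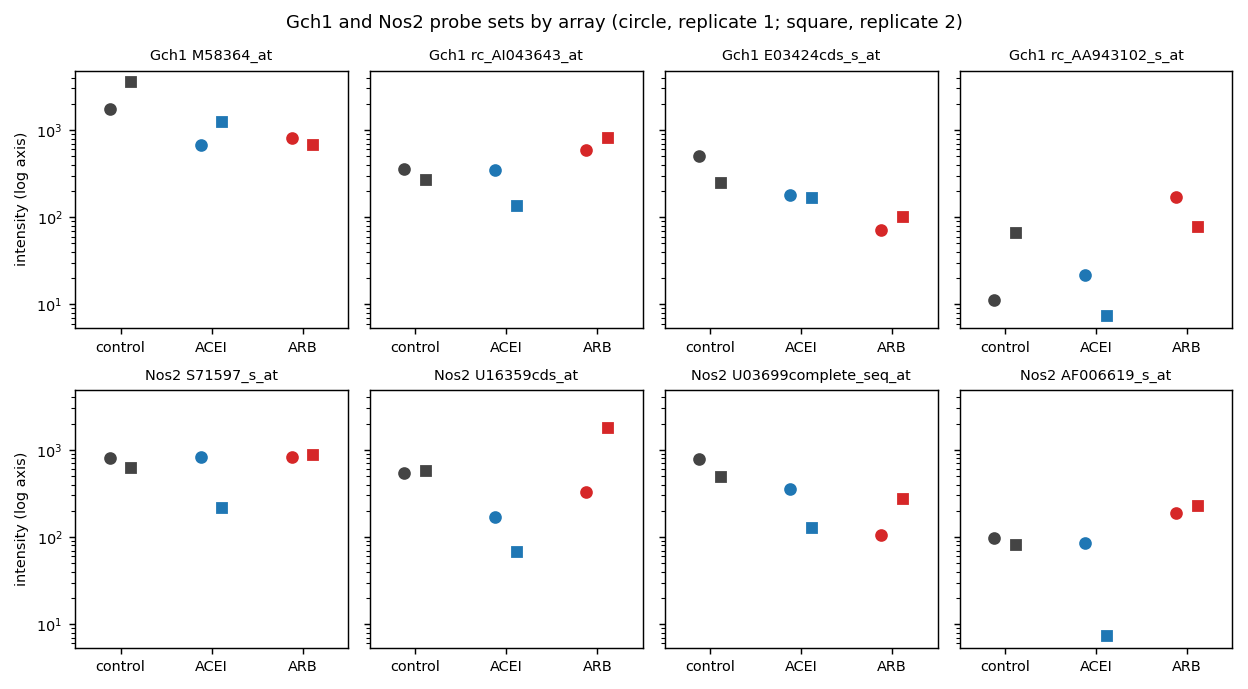
Intensity on a log axis of the 4 Gch1 (top) and 4 Nos2 (bottom) probe sets on each array, by group; circles are replicate 1 and squares replicate 2. In M58364_at, E03424cds_s_at and U03699complete_seq_at all 4 treated arrays lie below both controls, and in the other 5 they do not.

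The 250 bases before the RefSeq start of Gch1 (GRCr8, chr15:22917413-22917662, minus strand) are shown since 2 of its probe sets separated the treated from the control arrays. The capitals mark 2 overlapping GC boxes (GGGCGG), 136 and 131 bases before the start, and 1 CCAAT box, 88 bases before it.
Gch1: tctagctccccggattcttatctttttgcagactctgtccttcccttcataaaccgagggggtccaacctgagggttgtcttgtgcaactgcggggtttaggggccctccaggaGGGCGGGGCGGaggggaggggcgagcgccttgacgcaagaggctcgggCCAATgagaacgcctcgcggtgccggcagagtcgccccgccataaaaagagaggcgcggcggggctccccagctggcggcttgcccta
Of the 8 member genes 7 had such a stretch in the RefSeq table (all but Nos2), and neither TATAAA nor an NF-kappa-B motif was found on either strand of any of the 7. A match is a stretch of letters and was not tested as a site.

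Of the further enzymes of this cofactor, Spr, sepiapterin reductase, which completes its synthesis, read 769.6 and 359 on the controls, 806 and 1464 with ACEI, and 1768 and 1251 with ARB. It was at 1.14 ± 0.47 with RAS blockade and 1.35 ± 0.54 with ARB (adjusted p = 0.863 and 0.268 in limma), the opposite direction to M58364_at of Gch1. Without control 2 these were 0.67 and 0.88. Qdpr, which regenerates the cofactor, read 4439 and 3635 on the controls, 4074 and 4522 with ACEI, and 1541 and 1413 with ARB. By this probe set, the brighter of 2 for Qdpr, both ARB arrays lay well below the other 4. Both also lay below the other 4 for 7.43% of all 8740 probe sets. The difference was -1.39 ± 0.44 for ARB (adjusted p = 0.229 in limma) and -0.65 ± 0.38 for RAS blockade. Pts, the middle enzyme of the synthesis, and Gchfr, the feedback regulator of the Gch1 enzyme, were at 0.02 and -0.24 with RAS blockade.

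Nos1, the neuronal synthase, was dim: all 3 of its probe sets lay below the filter. AF008912_at read 163 and 91.0 on the controls, 179.9 and 76.8 with ACEI, and 280.4 and 226 with ARB. U67309_at read 96.6 and 86.2, 81.3 and 56.5, and 268 and 224, and X59949cds_s_at read 36.2 and 45.9, 57.4 and 29.0, and 148 and 146. In all 3 both ARB arrays lay above the other 4, as they did for 7 of all 22 member probe sets and for 36.5% of all 8740.

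In a limma fit without the filter the 3 Nos1 probe sets were at 0.68 ± 0.42, 0.89 ± 0.35 and 0.86 ± 0.35 with ARB (adjusted p = 0.371, 0.219 and 0.229). After quantile normalization these were 0.03, 0.22 and 0.23. The bacterial control probe sets were higher on the ARB arrays too. As a multiple of their median, AF008912_at was at 6.72 and 3.61 on the controls, 6.25 and 4.17 with ACEI, and 3.07 and 2.79 with ARB, so on that scale the ARB arrays were the lowest for it. For U67309_at the multiples were 3.99 and 3.42, 2.82 and 3.07, and 2.94 and 2.77, so the ARB arrays lay below the controls and overlapped the ACEI arrays. For X59949cds_s_at the ARB multiples of 1.62 and 1.81 lay within the range of the other 4 arrays. All 10 neuronal markers past the filter were higher with ARB, where 58.1% of all 5244 probe sets were. At an unadjusted p under 0.05 in limma 12.6% of all were higher. The neuronal markers past the filter had a median of 1.10 and 4 at that p, and were not expressed as multiples of the bacterial control median. Their summed level over 15 measured markers was 3924 and 5782 on the controls, 8053 and 7429 with ACEI, and 8893 and 12304 with ARB, and none was at 0. Of 5 astrocyte markers past the filter 1 was higher and 4 lower with ARB. Their part in the Nos1 values was not tested.

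**Figure D4:**
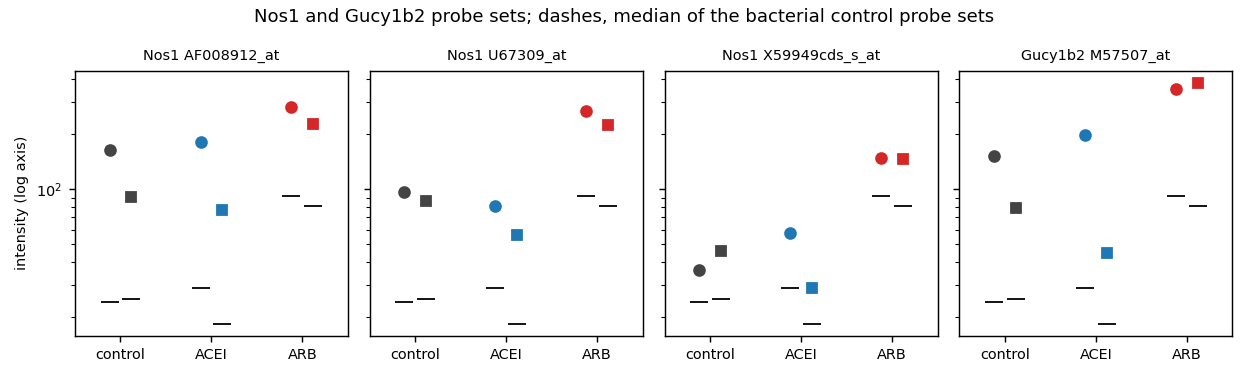
Intensity on a log axis of the 3 Nos1 probe sets and of Gucy1b2 on each array, by group; circles are replicate 1, squares replicate 2, and dashes mark the median of the 15 bacterial control probe sets on that array. Both ARB arrays lie above the other 4 in every panel, and so do their dashes.

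Ddah1, which degrades the natural inhibitor of the synthases, had 2 probe sets past the filter that ordered the arrays alike within each group. D86041_at read 1085 and 318 on the controls, 1789 and 632 with ACEI, and 1142 and 783 with ARB. rc_AI058941_s_at read 349 and 112, 379 and 169, and 426 and 204. In both, replicate 1 was above replicate 2 in every group, and the groups overlapped. The RAS blockade differences were 0.67 ± 0.58 and 0.31 ± 0.51 (adjusted p = 0.865 and 0.933 in limma). Without control 2 they were -0.10 and -0.25, so the direction rested on that array.

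Gucy1a1 and Gucy1b1, an alpha and a beta chain of soluble guanylate cyclase, the receptor of nitric oxide, differed from control by less than 1 standard error with RAS blockade. Gucy1a1 (rc_AA849036_at) read 631 and 780.0 on the controls, 633 and 324 with ACEI, and 655 and 781 with ARB; only ACEI 2 was low. Gucy1b1 (rc_AI233225_at) read 566 and 1126 on the controls, 854 and 617 with ACEI, and 751 and 524 with ARB. Their RAS blockade differences were -0.25 ± 0.42 and -0.22 ± 0.44 (adjusted p = 0.933 and 0.941 in limma). Without control 2 Gucy1b1 was at 0.22. Gucy1b2, another beta chain, lay below the filter and read 152 and 78.6, 199 and 44.7, and 353 and 382. It was at 1.18 ± 0.48 with ARB in the fit without the filter (adjusted p = 0.225), and 0.54 after quantile normalization. As a multiple of the bacterial control median it was at 6.29 and 3.12 on the controls, 6.90 and 2.43 with ACEI, and 3.86 and 4.72 with ARB, with the ARB arrays between the others.

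Smooth muscle and pericytes are the cells in which the cyclase relaxes vessels. Of their markers past the filter, 9 of 11 were lower with RAS blockade (median -0.44), while 59.6% of all probe sets were higher. At an unadjusted p under 0.05 in limma 2 of these markers were lower, against 2.02% of all probe sets, and 0 were called. Their summed level was 37666 and 49091 on the controls, 23385 and 21832 with ACEI, and 25366 and 28519 with ARB, and no marker was at 0. Acta2, smooth muscle actin, read 19511 and 23120 on the controls and 9605, 7200, 8712 and 8764 on the treated arrays. The profile most like that of Gucy1a1 over the 6 arrays was that of the signal transducer Smad4 (Pearson r = 0.993), followed by Dnajb9 (0.988), Trim8 (0.984), Mark1 (0.981) and Pigl (0.980). For Gucy1b1 these were Ndufb5 (0.989), Hsp90b1 (0.984), Pdcd10 (0.975), Ndufa3 (0.963) and Dcakd (0.957).

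**Figure D5:**
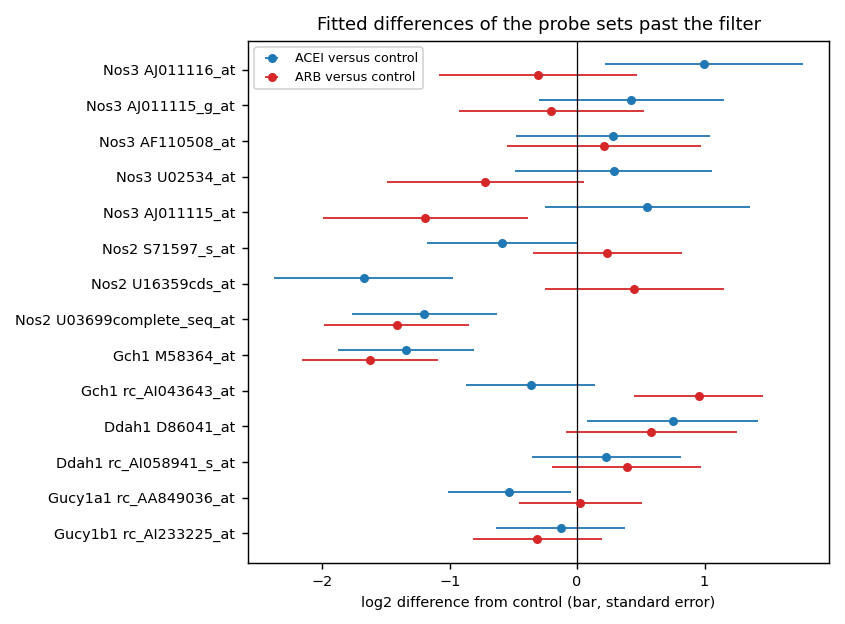
Log2 difference from control of the 14 member probe sets past the filter, with ACEI (blue) and ARB (red); bars are the standard error of the limma fit. M58364_at of Gch1 and U03699complete_seq_at of Nos2 lie below 0 with both drugs, and most Nos3 bars cross 0.

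Of 51 further genes of arginine supply, synthase partners and cyclic GMP handling, 36 had a probe set. Each was read by its 1 probe set with the highest mean, and 19 passed the filter. With RAS blockade 13 were higher and 6 lower, with a median of 0.16 against 0.13 for all probe sets, and 1 was higher and 0 lower at an unadjusted p under 0.05 (limma called 0). With ACEI 12 were higher and 7 lower (0 at an unadjusted p under 0.05), with ARB 11 and 8 (2 higher and 1 lower), and for ARB against ACEI 11 and 8 (2 higher and 3 lower). The arginine transporter Slc7a1 was even across the arrays, at 2667 and 2615 on the controls, 2508 and 3179 with ACEI, and 2670.3 and 3386 with ARB. Slc7a5, of the neutral amino acid transporter, read 17261 and 1850.3 on the controls, 12032 and 18037 with ACEI, and 4303 and 5269 with ARB. Asl, which makes arginine, was at -0.11 with RAS blockade, and Ass1 before it read 101 or less on every array. Arg1, which competes for arginine, was below the filter.

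Among the partners of Nos3, Cav1, the caveolin that binds and restrains it, was likewise low on control 2 and on both ARB arrays. It read 2918 and 94.4 on the controls, 2300.1 and 3077 with ACEI, and 292 and 173 with ARB. Its ARB readings were below the highest bacterial control of those arrays (545.3 and 522.9). With ACEI it was at 1.89 ± 1.08 (adjusted p = 0.992 in limma), at -0.13 without control 2, and at 3.90 without control 1, where it was called (adjusted p = 0.0187). ARB against ACEI was at -3.12 ± 1.08 (adjusted p = 0.156). Leaving out either control array left this difference unchanged, since the controls enter only its error. Cav3, the caveolin of muscle, was at 1.32 ± 0.48 with ARB (adjusted p = 0.248). Akt1, a kinase that activates Nos3, and the chaperone Hsp90ab1 were at 0.24 and -0.15 with RAS blockade.

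Downstream of cyclic GMP, Pde2a, a phosphodiesterase that degrades cyclic nucleotides and is stimulated by cyclic GMP, read 959 and 128 on the controls, 811 and 2083 with ACEI, and 138 and 219 with ARB. Its ARB readings were below the highest bacterial control of those arrays (545.3 and 522.9). It was at 1.55 ± 0.77 with ACEI (adjusted p = 0.992 in limma) and at -2.40 ± 0.77 for ARB against ACEI (adjusted p = 0.146). Leaving out either control array left the latter difference unchanged, since the controls enter only its error. Without control 2 the ACEI difference was 0.42. Slc7a5 was at 1.35 ± 0.90 and -1.61 ± 0.90 in the same comparisons (adjusted p = 0.992 and 0.317). The natriuretic peptide receptor Npr2, itself a guanylate cyclase, was at 0.72 ± 0.40 with RAS blockade (adjusted p = 0.863), and Npr1 at 0.16. Prkg2 and Pde5a, a kinase and a phosphodiesterase of cyclic GMP, lay below the filter and were at 0.44 and 0.33 in the fit without it.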

How the data were processed

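The authors deposited 1 intensity per probe set and array on a linear scale; the software, background correction and scaling are not given in the sources used here, and the array number limits the precision. The EXP headers deposited by the authors hold other details of the runs (day, lot, fluidics) and no measurement. Gene symbols came from the array's annotation table (7018 probe sets with 1 symbol, 308 with several, 1473 with none). The 59 control probe sets were left out of the tests. Values were transformed as log2 of the intensity plus 90 (chosen from the median value of 358.3), with no further normalization. After the dimmest 40% by mean were dropped, limma 3.58.1 (R 4.3.3) was run on 5244 probe sets, with a mean for each group and all 6 arrays in the fit. The test was two-sided on 3 residual plus 5.49 prior degrees of freedom, with Benjamini-Hochberg adjustment over all of them at 0.05. Members below the filter were fitted with all 8740. The procedure was tested on simulated data. The members and lists were chosen with earlier results of these data known. Each gene of the wider list and each marker was read by its probe set with the highest mean over the arrays. Other probe sets of these genes are not shown. Named were all member probe sets; of the wider list, up to 3 genes with the largest difference per comparison and a fixed set (Slc7a1, Arg1, Ass1, Asl, Cav1, Akt1, Prkg2, Pde5a, Npr1, Npr2); for Nos3 and the guanylate cyclase chains, the 5 most correlated probe sets. Pts, Gchfr, Hsp90ab1 and single markers were named after their values were seen. The other settings tried were log2 without an offset or with the median as offset, all probe sets kept or 60% dropped, quantile normalization, the replicate number or run day as a block, the mean of a gene's probe sets, and leaving out each array. Python 3.11.15 with pandas 2.3.3 wrote the tables and matplotlib 3.10.9 drew the figures.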

Additional observations from a re-analysis of the deposited data

How the results depend on the processing

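Of 47 fitted differences of single probe sets given above, 29 kept their direction under every alternative run; the cause of the other changes was not tested. For AJ011115_g_at and AJ011116_at of Nos3 with ARB blocking on run day gave 0.37 and 0.22, for S71597_s_at of Nos2 with RAS blockade 0.065, and for AF110508_at of Nos3 with ARB quantile normalization gave -0.23. Leaving out 1 array at a time, values with ACEI ran from -0.63 to 1.19 for AF110508_at, -0.80 to 1.90 for AJ011115_at, -0.52 to 1.37 for AJ011115_g_at, -0.31 to 2.30 for AJ011116_at and -0.62 to 1.19 for U02534_at of Nos3, -0.13 to 3.90 for Cav1, -0.23 to 2.93 for Slc7a5 and -0.84 to 0.11 for rc_AI043643_at of Gch1. With ARB they ran from -0.70 to 1.12, -2.54 to 0.16, -1.15 to 0.74, -1.62 to 1.00 and -1.64 to 0.20 for the 5 Nos3 probe sets in that order, and -0.63 to 1.52 for U16359cds_at of Nos2. With RAS blockade they ran from -0.57 to 0.22 for S71597_s_at of Nos2, -0.10 to 1.43 and -0.25 to 0.87 for D86041_at and rc_AI058941_s_at of Ddah1, and -0.67 to 0.22 for Gucy1b1. M58364_at of Gch1 and U03699complete_seq_at of Nos2 stayed below 0 throughout.

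Over all probe sets 0 were called in each comparison. With an offset equal to the median 3, 3, 4 and 4 were called for RAS blockade, ACEI, ARB and ARB against ACEI, and quantile normalization called 1 for RAS blockade. With the replicate number as a block 3, 2, 4 and 1 were called, none of them a member; the numbers are not shown to pair the arrays (correlations of 0.04, -0.02 and 0.002 between groups). Leaving out 1 array gave 0 to 60, 0 to 261, 0 to 46 and 0 to 305 calls, with 0 to 1 member called for ACEI. Without a control array the lone control is assumed to vary like the other groups. For ARB against ACEI, leaving out either control array is the same fit. With RAS blockade 59.6% of probe sets were higher, and 47.5% after quantile normalization, which moved the median of all from 0.13 to -0.03. At an unadjusted p under 0.05, RAS blockade had 266 probe sets, 575 with no filter and 527 when run day was the block. The signal of the bacterial control probe sets limits what can be read from dim members.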
